A study of Mus musculus with 10 samples.

Results

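The matrix metalloproteinases and their tissue inhibitors followed here are 10 of the 57010 genes in the count table: the proteases Mmp2, Mmp3, Mmp9, Mmp11, Mmp12, Mmp13 and Mmp14, and the inhibitors Timp1, Timp2 and Timp3. They were taken by gene symbol, as tumour-associated members of the family, by a rule that uses no measured value, and all 10 were found and passed the filter on low counts. The libraries are poly(A) RNA from whole mammary tumours of mice carrying the MMTV-PyMT transgene, in which a mouse mammary tumour virus promoter drives the polyoma middle T oncoprotein in mammary epithelium. The knockout (KO) group has 5 tumours of genotype PyMT; RHBDL4 -/-, and the wild-type (WT) group has 5 tumours of genotype PyMT; RHBDL4 +/+. All 10 tumours were untreated and were taken 5 weeks after tumour onset, and both groups carry the oncogene, so neither is a normal gland. Rhbdd1 encodes RHBDL4, a protease of the rhomboid family that sits in the membrane of the endoplasmic reticulum. The question asked of the 10 genes is whether their messenger RNA differs between KO and WT tumours.

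Matrix metalloproteinases are zinc-dependent enzymes that cut collagens, laminins, proteoglycans, growth factors and other enzymes outside the cell. Most are made as inactive proenzymes and are switched on by removal of a propeptide, and TIMP proteins block the active site. In mammary tumours much of the protease message comes from fibroblasts and infiltrating leukocytes rather than from the carcinoma cells, and activity also depends on steps that messenger RNA does not show.

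Mmp13, Mmp12 and Mmp3 lie in this order on chromosome 9 in a cluster of 10 metalloproteinase genes, with Mmp1b between Mmp12 and Mmp3. Their promoters are shown because these neighbours took different patterns over the tumours, and those of Timp2 and Timp3 because these inhibitors had the smallest unadjusted p-values among the 10 genes once WT replicate 5 was left out. Each line is the 120 bases before the annotated start, 5′ to 3′ on the gene's strand, from RefSeq on GRCm38.p6. The windows are chr9:7272394-7272513 (+) for Mmp13, chr9:7347254-7347373 (+) for the second of the 2 listed starts of Mmp12, chr9:7445702-7445821 (+) for Mmp3, chr11:118355412-118355531 (-) for Timp2 and chr10:86300292-86300411 (+) for Timp3. Capitals mark an AP-1 motif (TGAGTCA, searched on both strands), a TATA motif (TATAAA, on the gene's strand only) or a GC box (GGGCGG, on both strands). No motif overlapped another.
Mmp13: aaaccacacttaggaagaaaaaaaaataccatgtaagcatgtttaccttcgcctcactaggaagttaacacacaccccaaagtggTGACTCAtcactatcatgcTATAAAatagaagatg
Mmp12: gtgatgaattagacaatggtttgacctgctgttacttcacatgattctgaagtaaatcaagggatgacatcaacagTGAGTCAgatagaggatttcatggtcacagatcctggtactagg
Mmp3: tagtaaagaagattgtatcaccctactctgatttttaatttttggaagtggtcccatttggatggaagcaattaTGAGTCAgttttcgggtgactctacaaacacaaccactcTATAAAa
Timp2: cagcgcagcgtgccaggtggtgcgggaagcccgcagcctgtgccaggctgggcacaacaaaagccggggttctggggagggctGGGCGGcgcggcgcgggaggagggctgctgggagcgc
Timp3: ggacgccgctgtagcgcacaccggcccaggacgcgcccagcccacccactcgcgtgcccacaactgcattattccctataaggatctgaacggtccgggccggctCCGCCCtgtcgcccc

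The AP-1 letters began 35 bases before the start in Mmp13, 44 bases in Mmp12 and 46 bases in Mmp3, and TATAAA began 16 bases before the start in Mmp13 and 7 bases in Mmp3. AP-1 is the binding motif of the Fos and Jun factors. Neither motif was in the windows of Timp2 and Timp3, which each held a GC box. Of the 32851 windows of 120 bases in the RefSeq table, 2.3% held the AP-1 letters on either strand, 4.19% held TATAAA and 26.5% held a GC box on either strand. Mmp11, Mmp14 and Timp1 also held a GC box and neither of the other motifs. The other listed start of Mmp12 held none of the motifs. These are matches of letters and were not tested for binding. The table listed 8 of the 10 genes, without Mmp2 and Mmp9.

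Depth ran between 27406237 and 34987098 counts in KO libraries and between 25741463 and 43260948 in WT libraries. Rhbdd1 had 22.3, 15.1, 17.3, 13.2 and 16.8 CPM (counts per 1000000, scaled by the trimmed mean of M-values) in KO replicates 1 to 5, against 45.4, 38.6, 33.7, 33.5 and 25 CPM in WT replicates 1 to 5. No KO library reached the lowest WT library on this scale. In unscaled CPM WT replicate 5 had 14.6, below KO replicates 1, 2, 3 and 5, while the other WT libraries had at least 35.9 and no KO library more than 24. Reads of the gene were still counted in every KO tumour, and the labels do not say which part was deleted. KO over WT came to a log2 fold change of -1.05 ± 0.2 (SE, edgeR adjusted p = 0.669) with all 10 libraries and -1.14 ± 0.16 (SE, edgeR adjusted p = 0.113) without WT replicate 5. WT replicate 5 stood apart from the other 9 libraries. It held 29.1 CPM of the epithelial marker Epcam, against 1043 to 1594 CPM in the others, and 48139 CPM of the skeletal muscle actin Acta1, against at most 431 CPM. Its scaling factor was 0.588, against 1.007 to 1.101 in the rest, so its scaled CPM are larger than its unscaled ones. Each comparison is therefore given with all 10 libraries and with 9, without WT replicate 5. Every library has a batch label of its own, so if these are processing batches they cannot be told apart from the tumours, and no within-batch value exists. The labels do not say which tumours came from separate animals, so the p-values cover only the variation among these libraries, which may be partly technical.

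None of the 10 genes passed the test in either comparison. With 10 libraries, edgeR's quasi-likelihood test with Benjamini-Hochberg adjustment over 18577 genes called 0 genes (0%) at an adjusted p under 0.05, and 0 of the 10. At an unadjusted p under 0.05 it passed 1301 genes (7.00%) and 0 of the 10. With 9 libraries it called 2 of 19016 genes (0.0105%), Map2 and Ccnb2, named here after their values were seen, and again 0 of the 10. At an unadjusted p under 0.05 it passed 2204 genes (11.6%) and 2 of the 10, Timp2 and Timp3. With the leading number that some library names share as a random block in limma-voom (estimated correlation 0.366), 1 of the 10 passed at an unadjusted p under 0.05 with 9 libraries, with p = 0.0334 for Timp2 and p = 0.119 for Timp3. When libraries that share a leading number were summed instead, 2 of the 10 passed at that level with 9 libraries, Timp2 and Timp3. Their log2 fold changes there were 0.91 and 0.7, and 0 of the 10 were called. The 2 ways of using the shared number thus differed for Timp3. DESeq2 and limma-voom with sample weights also called 0 of the 10 in each comparison. These 2 tools called 43 and 17 genes in all with 10 libraries and 326 and 143 with 9. Below, limma-voom without mention of the block means this weighted fit.

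The estimates leaned to higher levels in KO tumours without any gene passing. In both comparisons 8 of the 10 log2 fold changes were above 0 and those of Mmp9 and Mmp12 were below it. Over all genes tested, 43.8% were above 0 with 10 libraries and 53.2% with 9. The median log2 fold change of the 10 was 0.37 with 10 libraries, where that of all genes was -0.06. With 9 libraries it was 0.55, where that of all genes was 0.03. The sign depended on the fit for some. Limma-voom with sample weights turned the signs of Mmp3, Mmp9, Mmp11 and Timp1 in both comparisons. Limma-voom without such weights, with the leading number as a random block, turned none of the 10. Summing libraries with a shared leading number turned the signs of Mmp2 and Timp2 with 10 libraries. The intervals around single genes were wide, and the 95% interval held 0 for every gene in both comparisons except Timp2 and Timp3 with 9 libraries.

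**Figure D1:**
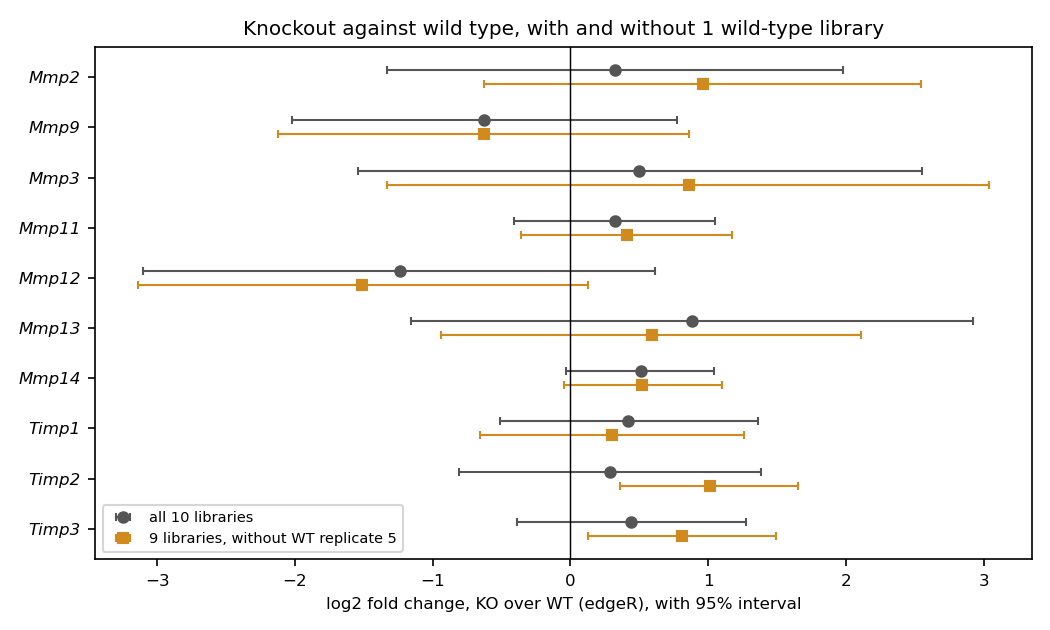
Log2 fold change of KO over WT tumours for the 10 genes (horizontal axis) from edgeR's quasi-likelihood fit, with 95% intervals as bars; circles use all 10 libraries and squares use 9, without WT replicate 5. Mmp9 and Mmp12 lie left of 0 in both fits, and only the 9-library intervals of Timp2 (0.36 to 1.65) and Timp3 (0.13 to 1.49) lie wholly right of 0.

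Timp2 blocks many metalloproteinases and also bridges MMP14 and proMMP2 at the cell surface, where proMMP2 is activated. Its level was 332, 187, 574, 229 and 343 CPM in KO replicates 1 to 5, against 155, 165, 179, 171 and 696 CPM in WT replicates 1 to 5. WT replicates 1 to 4 lay in a narrow band below all 5 KO tumours, and WT replicate 5 lay above them all on this scale. The mean was 333 ± 150 CPM in KO tumours (SD, n = 5) and 273 ± 236 CPM in WT tumours (SD, n = 5), or 168 ± 9.93 CPM without WT replicate 5 (SD, n = 4). EdgeR's estimate was a log2 fold change of 0.29 ± 0.49 (SE, edgeR adjusted p = 0.862) with 10 libraries and 1.01 ± 0.29 (SE, edgeR adjusted p = 0.296) with 9. WT replicate 5 therefore decided the size of the difference, and KO replicate 3 moved it too: without KO replicate 3 the log2 fold change was 0.01 with 10 libraries and 0.72 with 9. The part of that library's muscle, fat and fibroblast marker RNA in its Timp2 level was not tested. Unscaled, WT replicate 5 held 405 CPM of Timp2, below the 578 CPM of KO replicate 3 and above the other KO libraries, which ran between 206 and 377 CPM.

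Timp3, the inhibitor that stays bound to the matrix and also blocks ADAM17 and several ADAMTS enzymes, showed a like arrangement at a lower count level. It had 31.2, 32.8, 72, 23.5 and 29.7 CPM in KO replicates 1 to 5, against 22.2, 23.3, 18.3, 23.4 and 52 CPM in WT replicates 1 to 5. KO replicate 3 and WT replicate 5 stood above the rest, and the other 8 libraries lay between 18.3 and 32.8 CPM. Unscaled, WT replicate 5 had 30.3 CPM, below the 33.4, 36.1 and 32.6 CPM of KO replicates 1, 2 and 5, so its rank came with its scaling factor. The mean was 37.8 ± 19.4 CPM in KO tumours (SD, n = 5) and 27.8 ± 13.7 CPM in WT tumours (SD, n = 5), or 21.8 ± 2.38 CPM without WT replicate 5 (SD, n = 4). On the log2 scale KO over WT was 0.44 ± 0.37 (SE, edgeR adjusted p = 0.732) with 10 libraries and 0.81 ± 0.3 (SE, edgeR adjusted p = 0.367) with 9. Without KO replicate 3 it was 0.08 with 10 libraries and 0.45 with 9.

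With 9 libraries the groups of Timp2 and Timp3 did not overlap, KO above WT. Of all genes tested, 2.00% had no overlap with KO higher and 3.44% had none with KO lower, while 0 of the 10 genes lay wholly lower in KO tumours. With 10 libraries 0 of the 10 had groups without overlap, against 0.807% of all genes with KO higher and 1.18% with KO lower. The margin for Timp3 was narrow: the lowest KO library had 25.2 CPM and the highest WT library 24.8 CPM when the 9 libraries were scaled by themselves. In unscaled CPM the groups of Timp3 overlapped, at 23.8 CPM for the lowest KO library and 25.5 CPM for the highest WT library.

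Timp1, a secreted inhibitor that many cells induce in inflammation and that binds proMMP9, had 18.1, 21.6, 38.2, 26.7 and 23.5 CPM in KO replicates 1 to 5, against 8.53, 10.9, 26.9, 37.4 and 11.8 CPM in WT replicates 1 to 5. KO replicate 3 was the highest library, WT replicates 3 and 4 lay within the KO range, and the other 3 WT libraries were below every KO tumour. Its log2 fold change was 0.42 ± 0.42 (SE, edgeR adjusted p = 0.77) with 10 libraries and 0.3 ± 0.43 (SE, edgeR adjusted p = 0.811) with 9. In the limma-voom fits with sample weights it was -0.21 and -0.22, so its direction depended on the fit.

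**Figure D2:**
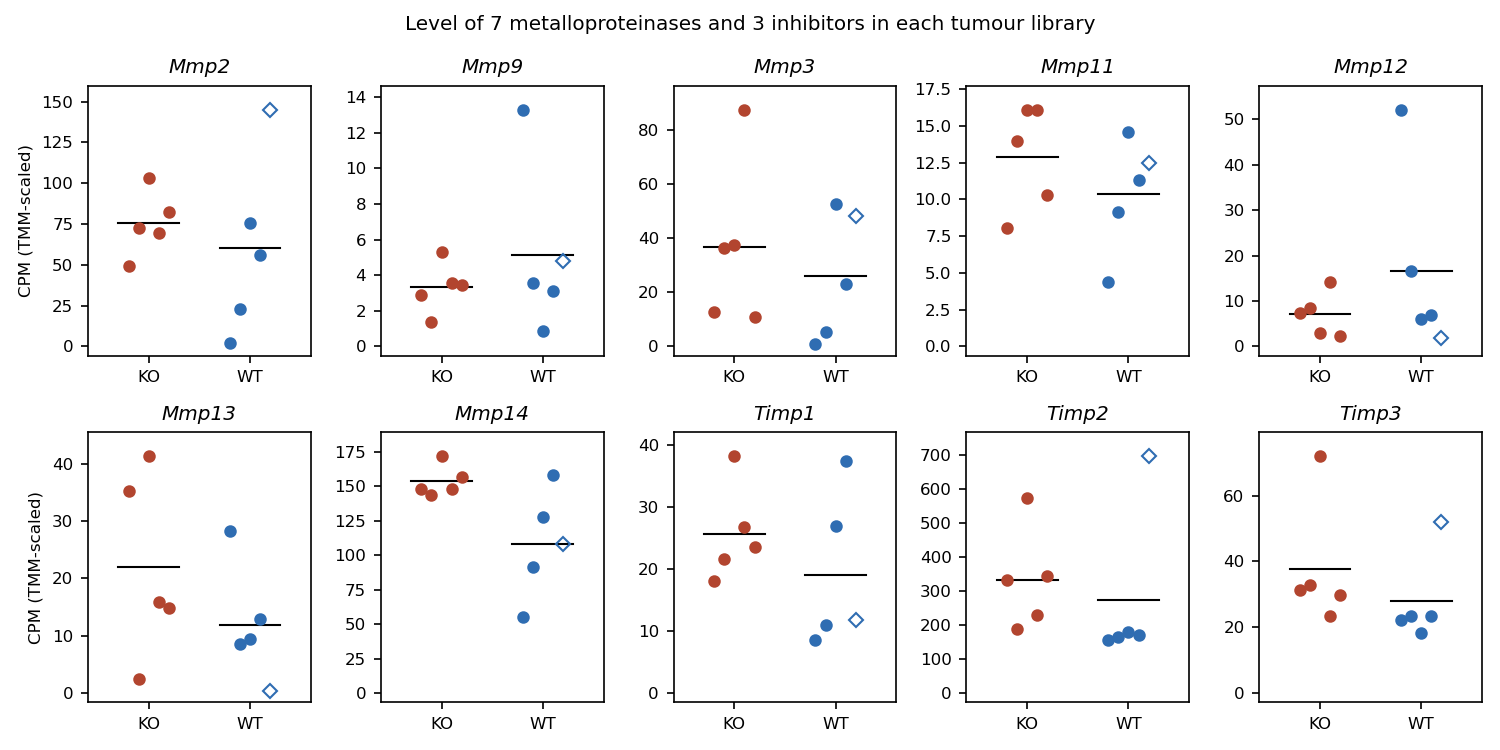
Level of each gene in CPM (scaled by the trimmed mean of M-values, vertical axes) in the KO tumours on the left and the WT tumours on the right of each panel; each point is a library, the open diamond is WT replicate 5 and the line is the mean of 5 libraries. Timp2 and Timp3 show WT replicates 1 to 4 below the KO points with WT replicate 5 above most of them, and Mmp14 shows KO points between 144 and 172 CPM beside WT points between 55.4 and 158 CPM.

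Mmp14, the membrane-type enzyme MT1-MMP that cuts fibrillar collagen at the cell surface and activates proMMP2, was the most even of the 7 proteases in KO tumours. It had 148, 144, 172, 148 and 157 CPM in KO replicates 1 to 5, against 55.4, 91.2, 128, 158 and 108 CPM in WT replicates 1 to 5. Of the WT libraries only replicate 4 reached the KO range, and replicate 1 was lowest. Unscaled, WT replicate 5 had 62.7 CPM, near the 55.9 CPM of WT replicate 1. The mean was 154 ± 11 CPM in KO tumours (SD, n = 5) and 108 ± 38.6 CPM in WT tumours (SD, n = 5). The fitted log2 fold change was 0.51 ± 0.24 (SE, edgeR adjusted p = 0.669) with 10 libraries and 0.52 ± 0.26 (SE, edgeR adjusted p = 0.472) with 9. With this scaling WT replicate 5 therefore hardly moved it. Over the fits that leave out a library it ranged between 0.35 and 0.69 with 10 libraries and between 0.3 and 0.76 with 9, lowest in both without WT replicate 1.

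Mmp2, the gelatinase that MMP14 activates and that cuts denatured collagen and type IV collagen, had 49.1, 72.4, 103, 69.7 and 82.4 CPM in KO replicates 1 to 5, against 2.38, 22.7, 75.4, 56 and 145 CPM in WT replicates 1 to 5. WT replicate 1 was lowest and WT replicate 5 highest, with the KO libraries inside that span. Unscaled, WT replicate 5 had 84.4 CPM, below the 104 and 90.6 CPM of KO replicates 3 and 5. The mean was 75.3 ± 19.6 CPM in KO tumours (SD, n = 5) and 60.3 ± 55.2 CPM in WT tumours (SD, n = 5), or 39.1 ± 32.8 CPM without WT replicate 5 (SD, n = 4). KO over WT came to a log2 fold change of 0.32 ± 0.74 (SE, edgeR adjusted p = 0.898) with 10 libraries and 0.96 ± 0.71 (SE, edgeR adjusted p = 0.624) with 9. Without WT replicate 1 it was 0.02 with 10 libraries and 0.56 with 9, so WT replicates 1 and 5 pulled it in opposite directions.

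Mmp9, the gelatinase of neutrophils, macrophages and some carcinoma cells, was low. It had 2.9, 1.4, 5.3, 3.59 and 3.43 CPM in KO replicates 1 to 5, against 13.3, 3.57, 0.858, 3.13 and 4.8 CPM in WT replicates 1 to 5. WT replicate 1 stood above all others and WT replicate 3 below. EdgeR's estimate was a log2 fold change of -0.63 ± 0.63 (SE, edgeR adjusted p = 0.77) with 10 libraries and -0.63 ± 0.66 (SE, edgeR adjusted p = 0.736) with 9. Without WT replicate 1 it turned to 0.11 and 0.41, and in the limma-voom fits to 0.54 and 0.52. WT replicate 1 also had 1242 CPM of the neutrophil marker S100a8, against 20.1 to 273 CPM in KO tumours and 1.8 to 93.9 CPM in the other WT tumours. The sum of 13 neutrophil markers was 444, 1160, 924, 4461 and 660 CPM in KO replicates 1 to 5, against 2315, 1229, 1536, 1948 and 46.6 CPM in WT replicates 1 to 5. A sum of CPM weighs most on the markers with most reads. S100a8 held 1242 CPM of the sum in WT replicate 1 but 273 CPM in KO replicate 4. In WT replicates 3 and 4 it held 14.5 and 22.2 CPM. Which markers carried the rest of the sum was not tested. The sum was highest in KO replicate 4, where Mmp9 was 3.59 CPM, and the part of neutrophils in the Mmp9 level was not tested.

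Mmp3, stromelysin 1, which cuts proteoglycans, laminin and several proenzymes, had 12.6, 36.2, 37.5, 87.4 and 10.7 CPM in KO replicates 1 to 5, against 1.03, 5.35, 52.7, 23 and 48.2 CPM in WT replicates 1 to 5. Both groups spread widely, KO replicate 4 was highest and WT replicates 1 and 2 were lowest. On the log2 scale KO over WT was 0.5 ± 0.92 (SE, edgeR adjusted p = 0.872) with 10 libraries and 0.86 ± 0.97 (SE, edgeR adjusted p = 0.757) with 9. Without KO replicate 4 it was -0.1 with 10 libraries and 0.25 with 9, and without WT replicate 3 it was 1.93 with 9. In limma-voom it was -0.35 and -0.3.

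Mmp11, stromelysin 3, an enzyme of fibroblasts around carcinomas that furin activates inside the cell, had 8.05, 14, 16.1, 16.1 and 10.3 CPM in KO replicates 1 to 5, against 4.4, 9.14, 14.6, 11.3 and 12.5 CPM in WT replicates 1 to 5. The groups overlapped over most of their range, and WT replicate 1 was lowest. Its log2 fold change was 0.32 ± 0.33 (SE, edgeR adjusted p = 0.775) with 10 libraries and 0.41 ± 0.34 (SE, edgeR adjusted p = 0.669) with 9, and limma-voom gave -0.12 and -0.1. Mmp11 overlaps the gene Chchd10 on the opposite strand, which had 10.1 to 236 CPM over the libraries. No source used here gives the strand setting of the counting, so reads of the 2 genes may not have been told apart.

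Mmp12, the macrophage elastase, had the lowest estimate for KO against WT. It had 7.3, 8.47, 3.01, 14.2 and 2.27 CPM in KO replicates 1 to 5, against 52.1, 16.6, 5.94, 6.9 and 1.93 CPM in WT replicates 1 to 5. WT replicates 1 and 2 were above every KO tumour and WT replicate 5 below every one. The mean was 7.05 ± 4.8 CPM in KO tumours (SD, n = 5) and 16.7 ± 20.5 CPM in WT tumours (SD, n = 5), or 20.4 ± 21.7 CPM without WT replicate 5 (SD, n = 4). The fitted log2 fold change was -1.24 ± 0.83 (SE, edgeR adjusted p = 0.686) with 10 libraries and -1.51 ± 0.73 (SE, edgeR adjusted p = 0.465) with 9. Without WT replicate 1 it was -0.16 and -0.46, so that library carried most of the difference. The summed level of 16 macrophage markers in WT replicate 1 was 1281 CPM, within the 1068 to 3622 CPM of the other WT tumours and below the 1399 to 2278 CPM of KO tumours. None of those markers was at 0 in any library. Apoe, with means of 733 CPM in KO and 786 CPM in WT tumours, held a large part of that sum. The macrophage receptor Csf1r was 26 CPM in WT replicate 1. It was 28.2 to 149 CPM in the other WT tumours and 29.5 to 70.3 CPM in KO tumours. The part of macrophages in the Mmp12 level was not tested.

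Mmp13, the main interstitial collagenase of mice, cuts fibrillar collagens and lies next to Mmp12. It had 35.2, 2.36, 41.3, 15.9 and 14.8 CPM in KO replicates 1 to 5, against 28.2, 8.55, 9.44, 12.9 and 0.267 CPM in WT replicates 1 to 5. The 0.267 CPM of WT replicate 5 rest on 4 counts, while KO replicate 2 was the next lowest. KO over WT came to a log2 fold change of 0.88 ± 0.92 (SE, edgeR adjusted p = 0.775) with 10 libraries and 0.59 ± 0.68 (SE, edgeR adjusted p = 0.762) with 9. Over the fits that leave out a library it ran between 0.52 and 1.49 with 10 libraries and between 0.23 and 1.1 with 9. In WT replicate 1 Mmp12 and Mmp13 were both at the top of the WT group and their neighbour Mmp3 was at its lowest, 1.03 CPM.

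Levels between genes were compared per kilobase of merged exons. On this scale the median over the 10 libraries was 53.5 CPM per kb for Timp2, followed by 25.4 for Timp1, 24.5 for Mmp14, 21.1 for Mmp2 and 16.4 for Mmp3. Mmp13 had 5.17, Mmp11 4.28, Timp3 3.27, Mmp9 0.99 and Mmp12 0.981 CPM per kb. Each pair of neighbours in this order had overlapping ranges over the libraries. Compared within each library, Timp2 was above Timp1 in all 10, most narrowly in WT replicate 4 at 44 against 42.1 CPM per kb. Every other pair of neighbours changed order in some library. Timp3 has 8144 bases of merged exons and 633 of coding sequence. Taken per kilobase of the longest coding sequence instead, it moved to rank 3, behind Timp2 and Mmp14, and Timp2 was again at rank 1. Mmp9 and Mmp12 held the lowest 2 ranks on both scales.

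The 10 genes differed widely in how much they varied inside a group. The within-group SD of log2 CPM over 9 libraries was 1.88 for Mmp3, 1.5 for Mmp2, 1.33 for Mmp13, 1.24 for Mmp12 and 1.15 for Mmp9. More than 93.4% of the 19016 genes tested had a smaller SD than each of Mmp3, Mmp2, Mmp13 and Mmp12, and 93.4% had a smaller SD than Mmp9. Mmp14 was the steadiest, at 0.44, followed by Timp2 and Timp3 at 0.47 each, Mmp11 at 0.59 and Timp1 at 0.74. The median gene had 0.36. Mmp2 thus spread more widely than the lower-count genes Mmp9, Mmp12 and Mmp13.

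Single tumours set the extremes. WT replicate 1 was the lowest of the 10 libraries for 6 of the 10 genes and the highest for Mmp9 and Mmp12. KO replicate 3 was the highest for 4 of the 10 with 10 libraries and for 6 with 9. Some library names share a leading number, which the labels do not explain: KO replicates 3 and 4, WT replicates 1 and 2, and WT replicates 3 and 4. If that number marks the mouse, these pairs are not independent, and the p-values above that take no account of it may be too small. Within the pairs Mmp2 differed 1.48-fold in KO replicates 3 and 4, 9.52-fold in WT replicates 1 and 2 and 1.35-fold in WT replicates 3 and 4. Timp2 differed 2.5-fold, 1.06-fold and 1.04-fold in the same order, and Mmp12 4.71-fold, 3.14-fold and 1.16-fold. Timp2 was close within the WT pairs, but WT replicates 1 to 4 all lay between 155 and 179 CPM, whether or not they shared a number. Mmp2 was far apart in WT replicates 1 and 2.

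**Figure D3:**
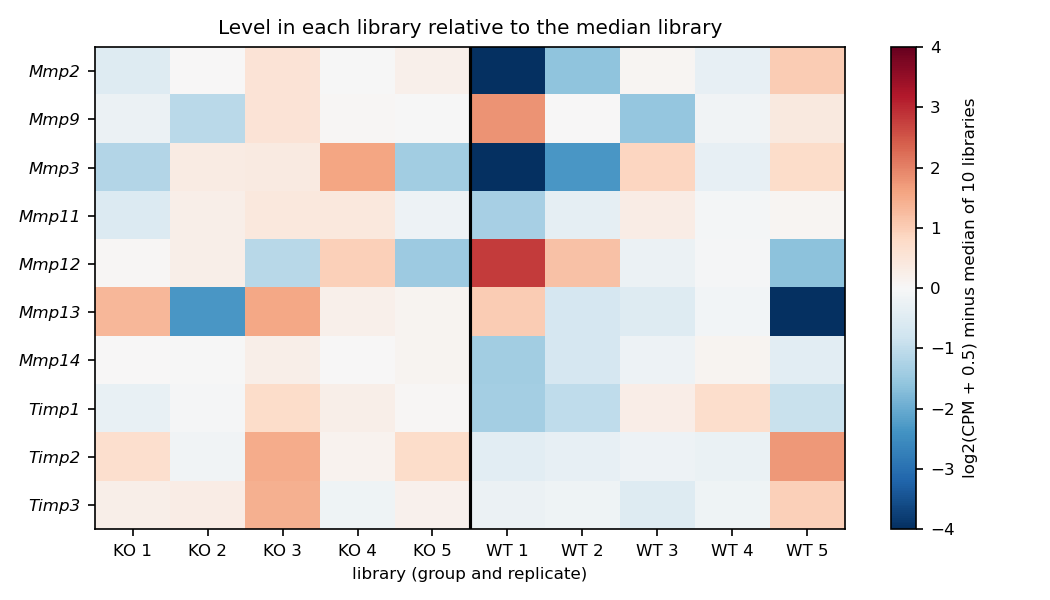
Log2 of CPM plus 0.5 for each gene (rows) in each library (columns, KO left of WT), less the median of the 10 libraries; red is above and blue below that median, with colours capped at 4 log2 units. WT replicate 1 is dark blue for Mmp2 and Mmp3 and dark red for Mmp12, and WT replicate 5 is dark blue for Mmp13 and red for Timp2, while KO replicate 3 is red for Timp2 and Timp3.

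The ratio of inhibitor to protease message was taken in each library on the scale of CPM per kb of merged exons. Timp2 over Mmp2 was 5.85, 2.24, 4.83, 2.85 and 3.61 in KO replicates 1 to 5, against 56.3, 6.3, 2.05, 2.65 and 4.16 in WT replicates 1 to 5. Apart from WT replicate 1, where Mmp2 was nearly absent, the groups covered the same span. Timp2 over Mmp14 was 3.43, 1.98, 5.11, 2.37 and 3.35 in KO replicates 1 to 5, against 4.28, 2.77, 2.13, 1.66 and 9.89 in WT replicates 1 to 5. Timp1 over Mmp9 was 24.8, 61.7, 28.7, 29.7 and 27.2 in KO replicates 1 to 5, against 2.56, 12.2, 125, 47.6 and 9.8 in WT replicates 1 to 5. With all 10 libraries the WT range contained the KO range in each ratio. Without WT replicate 5 the WT range of Timp2 over Mmp14 ended at 4.28, below the 5.11 of KO replicate 3. These are ratios of messenger RNA and depend on the exon lengths used.

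**Figure D4:**
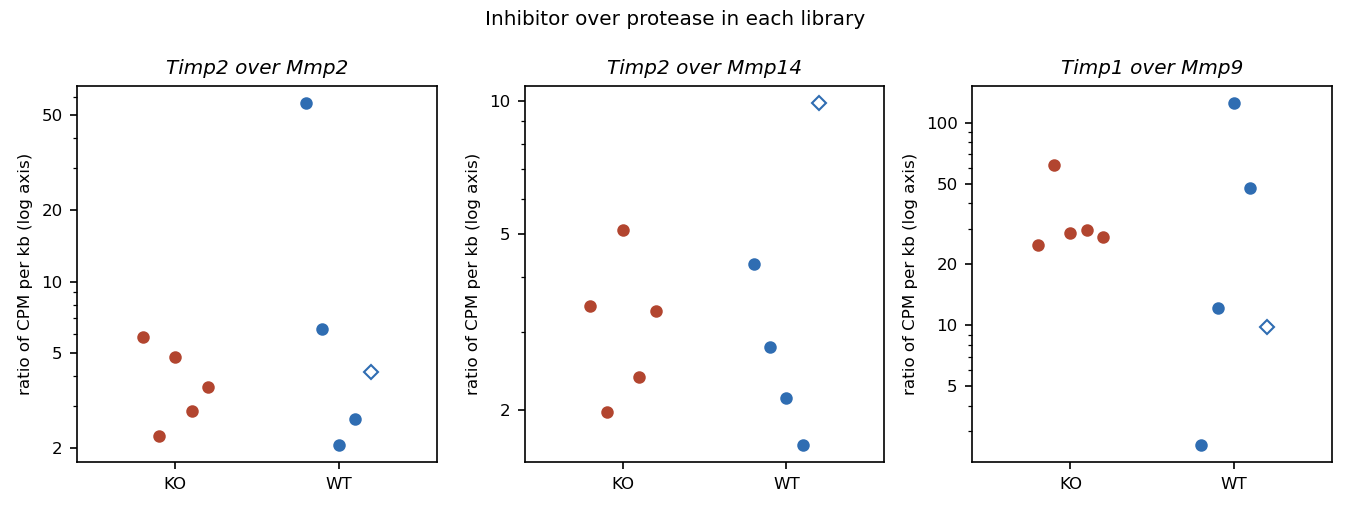
Ratio of inhibitor to protease level in CPM per kb (log vertical axes) in KO tumours on the left and WT tumours on the right of each panel; each point is a library and the open diamond is WT replicate 5. With all 10 libraries the KO points lie inside the WT range in each panel, for Timp2 over Mmp14 only with the open diamond, and WT replicate 1 is highest for Timp2 over Mmp2 at 56.3 and lowest for Timp1 over Mmp9 at 2.56.

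In whole tumours, fewer cells of a type and less RNA per cell cannot be told apart, so the markers of cells that make these proteins were read beside them. The summed level of 18 fibroblast markers was 605, 1419, 791, 968 and 861 CPM in KO replicates 1 to 5, against 199, 416, 1186, 962 and 8036 CPM in WT replicates 1 to 5. WT replicate 1 was lowest and WT replicate 5 highest, as they were for Mmp2. Pdgfra, a defining fibroblast receptor, was likewise at 5.58 CPM in WT replicate 1 and 160 CPM in WT replicate 5, against 36.1 to 69.3 CPM in KO tumours. None of the 18 markers was at 0 in any library. With 10 libraries 0 of the 18 had a log2 fold change above 0 and the median was -0.8, and with 9 libraries 16 of the 18 were above 0 and the median was 0.44. EdgeR, DESeq2 and limma-voom called none of the 18 in either comparison, and edgeR gave 0 and 1 an unadjusted p under 0.05. The 10 genes had 8 estimates above 0 in both comparisons, while the signs of most fibroblast markers changed when WT replicate 5 was left out. With 9 libraries the 12 fat and 12 muscle markers were all above 0 too, and the part of any cell type in the members' estimates was not tested.

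Members were also set against the fibroblast sum. Per 1000 CPM of fibroblast markers, Mmp2 was 81.1, 51, 130, 72 and 95.7 in KO replicates 1 to 5, against 11.9, 54.4, 63.5, 58.2 and 18 in WT replicates 1 to 5. On this ratio KO replicate 2 lay just below WT replicates 2 to 4 and the other KO tumours above all WT tumours, while WT replicates 1 and 5 were lowest. Timp2 was 549, 132, 726, 237 and 399 in KO replicates 1 to 5, against 778, 396, 151, 178 and 86.6 in WT replicates 1 to 5. On this ratio the groups of Timp2 overlapped across nearly their whole range, also without WT replicate 5. Mmp14 was 102 to 245 in KO tumours, against 13.4 in WT replicate 5 and 108 to 278 in the other WT tumours, and Mmp11 was 9.88 to 20.4 in KO tumours, against 1.55 in WT replicate 5 and 11.7 to 22.1 in the other WT tumours. The 3 fibroblast markers with the smallest p in the 9-library fit, Fbln2, Fbln1 and Pdgfra, had log2 fold changes of 0.61, 0.85 and 0.94 there and of -0.02, -0.03 and -0.1 with 10 libraries. The 12 markers of endothelial cells gave 0 above 0 with 10 libraries and 12 above 0 with 9, with 0 and 1 at an unadjusted p under 0.05 and none called by any of the 3 tools. Vwf had the smallest p among them with 9 libraries, at log2 fold changes of -1 with 10 libraries and 1.24 with 9. Flt1 and Cldn5 came next, each at 0.88 with 9. Among 16 macrophage markers, of which Itgam (0.5), Apoe (0.35) and Cx3cr1 (-0.53) had the smallest p with 9 libraries, 3 and 5 were above 0, with none called by any of the 3 tools and none at an unadjusted p under 0.05.

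**Figure D5:**
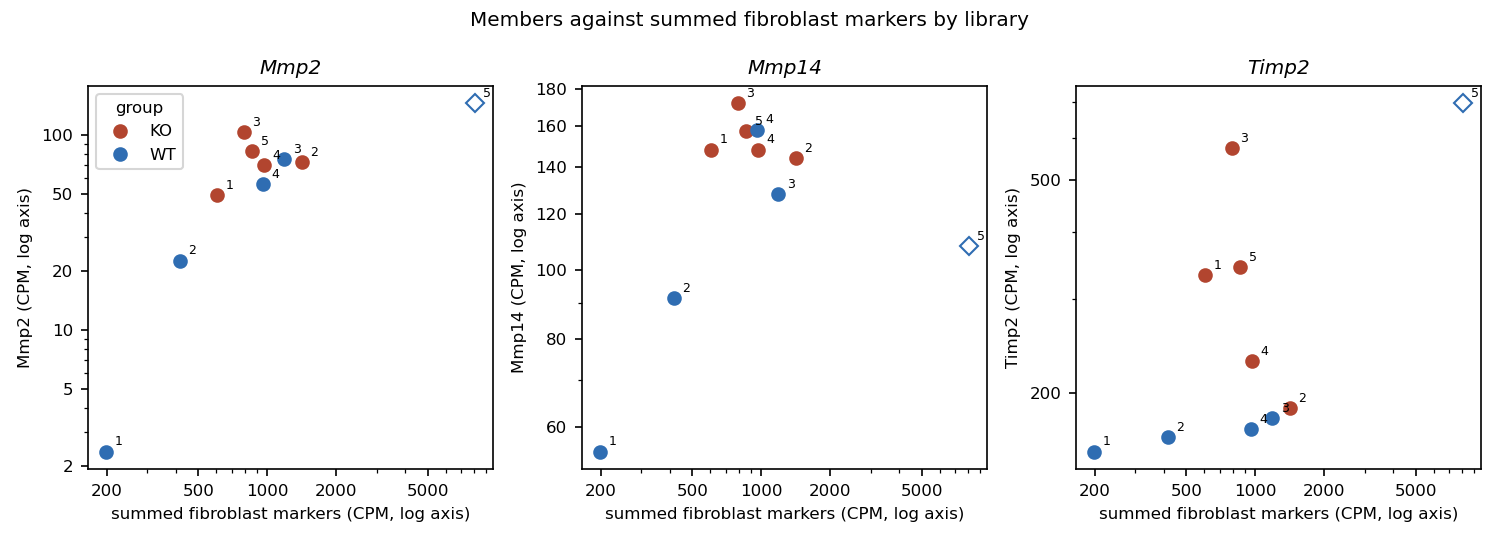
Level of Mmp2, Mmp14 and Timp2 in CPM (vertical log axes) against the summed CPM of 18 fibroblast markers (horizontal log axes) in each library, with KO and WT points numbered by replicate and WT replicate 5 as an open diamond. Mmp2 is lowest in WT replicate 1 (sum 199 CPM) and highest in WT replicate 5 (sum 8036 CPM), whereas Timp2 is at 574 CPM in KO replicate 3 (sum 791 CPM) and at 171 CPM in WT replicate 4 (sum 962 CPM).

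Other genes of the system were read from lists. Of 17 genes, the further metalloproteinases and Timp4, 13 were tested and edgeR called 0 in either comparison, with 1 at an unadjusted p under 0.05 in each. There were 5 above 0 and a median log2 fold change of -0.38 with 10 libraries, and 9 above 0 and a median of 0.47 with 9. Mmp15, another membrane-type enzyme, was the most abundant of them in CPM, at a mean of 123 and a range of 61.8 to 156 over the libraries. Mmp16, also of the membrane type, averaged 14 ± 7.33 CPM in KO tumours (SD, n = 5) and 4.29 ± 2.69 CPM in WT tumours (SD, n = 5). Its log2 fold change was 1.7 ± 0.56 (SE, edgeR adjusted p = 0.669) with 10 libraries and 1.49 ± 0.5 (SE, edgeR adjusted p = 0.33) with 9, and the lowest KO library, at 6.54 CPM, lay just under the highest WT library, at 6.88 CPM. Mmp21 had 0.363 to 1.27 CPM in KO tumours and 0.277 to 0.573 CPM in WT tumours. Timp4, an inhibitor found in muscle, heart and fat, had 0 to 4.5 CPM in KO tumours, against 48.6 CPM in WT replicate 5 and at most 0.694 CPM in the other WT tumours.

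Of 24 genes that activate or restrain metalloproteinases, 21 were tested with 10 libraries and 22 with 9, and edgeR called 0, with 11 and 12 above 0 and 5 and 2 at an unadjusted p under 0.05. DESeq2 called A2m alone of them, with 9 libraries, and limma-voom called 0. A2m, the protease trap alpha-2-macroglobulin, averaged 81.4 ± 68.5 CPM in KO tumours (SD, n = 5) and 9.92 ± 8.11 CPM in WT tumours (SD, n = 5). Its log2 fold change was 3.03 ± 1.05 (SE, edgeR adjusted p = 0.669) with 10 libraries and 2.74 ± 0.87 (SE, edgeR adjusted p = 0.317) with 9. The KO libraries ran between 13.4 and 172 CPM and the WT libraries between 0.2 and 19.2 CPM, so they overlapped at the low end. Spock1, a proteoglycan of the testican family, was low, at 0.155 to 1.02 CPM in KO tumours and 0.121 to 0.3 CPM in WT tumours.

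Among collagens and other matrix substrates 27 genes were tested with 10 libraries and 28 with 9, and edgeR called 0, with 0 at an unadjusted p under 0.05 in either. With 10 libraries 13 were above 0, with a median of -0.05, and with 9 libraries 21 were, with a median of 0.2. Their summed level was 12170 to 17445 CPM in KO tumours and 4466 to 17482 CPM in WT tumours. The adhesive matrix protein gene Thbs2 averaged 134 ± 36.2 CPM in KO tumours (SD, n = 5) and 67.9 ± 41.2 CPM in WT tumours (SD, n = 5). Its log2 fold change was 0.98 ± 0.54 (SE, edgeR adjusted p = 0.669) with 10 libraries. Thbs1 and Col18a1 had lower estimates in KO tumours, at log2 fold changes of -0.66 and -0.26 with 9 libraries, without passing the test. Of 12 ADAMTS proteases tested, edgeR called 0, with 0 and 1 at an unadjusted p under 0.05, and 6 were above 0 with 10 libraries and 9 with 9. DESeq2 and limma-voom called 0 of the substrates, of the ADAMTS genes and of the further metalloproteinases. Adamts10 had 20.2 to 58.3 CPM in KO tumours and 20.8 to 32.8 CPM in WT tumours. Adamts16 had 0.633 to 6.17 CPM in KO tumours and 0.0302 to 1.83 CPM in WT tumours. Adamts5, an aggrecanase, had 11.3 to 26 CPM in KO tumours, against 156 CPM in WT replicate 5 and 4.81 to 17.8 CPM in the other WT tumours.

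For each of the 10 genes, the genes closest to it over 9 libraries were read as a description, from 11163 candidates with a mean of at least 5 CPM. The measure is the SD of the log2 ratio to the member, which is small where both genes move in step. Mmp2 was followed by Cpxm1 (0.26) and Spon1 (0.27), against an SD of its own of 1.68. Mmp3 was followed by Lyve1 (0.34) and Clec10a (0.45), against 1.95. The steadier genes had smaller values, at 0.14 for Gspt2 and 0.15 for Ripk3 beside Mmp14, and at 0.18 for Paqr6 and 0.2 for Msrb3 beside Timp2. Mmp12 and Mmp13 had none so close: Nod2 (0.64) and Oas1b (0.67) came nearest Mmp12, and Errfi1 (0.62) and Car9 (0.67) nearest Mmp13. The rest were Hmga1b (0.52) and Hmga1 (0.53) for Mmp9, Eml5 (0.17) and Ccn5 (0.18) for Mmp11, Fkbp7 (0.29) and Phldb2 (0.32) for Timp1, and Nudt4 (0.26) and Tbcd (0.29) for Timp3. Hmga1 and Hmga1b are near-identical copies whose reads may be split between them.

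This measure is small for any genes that vary little. The members' own SDs were 0.53 for Mmp14, 0.58 for Timp3, 0.61 for Mmp11, 0.65 for Timp2, 0.74 for Timp1, 1.08 for Mmp9, 1.25 for Mmp13 and 1.33 for Mmp12. Among the 10 genes the closest pairs by the same measure were Timp2 with Timp3 (0.34) and Mmp14 with Mmp11 or Timp1 (0.36 each). The pairs farthest apart were Mmp3 with Mmp12 (2.91) and Mmp2 with Mmp12 (2.9), each above the own SDs of its genes. The closest pairs were of steady genes, but variability alone did not order the pairs. Mmp2 and Mmp3, the most variable of the 10, were both lowest in WT replicate 1 and stood at 0.94. That is below their own SDs of 1.68 and 1.95. The libraries shared depth and scaling, and all of these values rest on 9 points.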

How the data were processed

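Whole-tumour poly(A) RNA was sequenced from 5 KO and 5 WT tumours with stranded libraries, per the labels' protocols. The authors deposited 1 table of gene counts, which holds raw counts of 57010 Ensembl genes; per the submitters' processing notes the tools were FastQC, STAR, featureCounts and DESeq2 and the build GRCm39, without versions; multi-mapping and strand settings are unstated there. Symbols were matched for 52029 genes (99.66% of counts).

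Counts were tested with edgeR 4.0.16 in R 4.3.3 (trimmed-mean scaling, its own expression filter, robust quasi-likelihood fit, adjusted p under 0.05), with 10 libraries and refitted with 9. Printed CPM use the scaling of all 10. Intervals are 95% intervals from the fit's degrees of freedom. Scripts were tested on simulated counts. Lengths came from GENCODE vM21 on GRCm38, another build than the counts. Alternatives used DESeq2 1.42.0, limma 3.58.1, another scaling, other filters and the shared leading numbers; comparisons of overlap under other scalings were added after seeing the data. Groups and replicates follow the labels, with replicates numbered in accession order.

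Named were Rhbdd1, the 10 genes, up to 3 genes a list with the smallest p in the 9-library fit, 2 closest genes per member, and defining cell markers; 1 gene that this rule names is not reported here. The members and lists were chosen with earlier results of these data known.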

Additional observations from a re-analysis of the deposited data

Results flagged for a closer look

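A library far from the others of its group was sought in 48 groups, each of 5 libraries or of WT replicates 1 to 4. Such a library was found in 10 of them, where chance flags about 1 in 20 independent groups. These groups share the same 10 libraries and 6 of the 10 are WT replicate 5, so they are not independent. Timp2 had 696 CPM in WT replicate 5, far above the other WT tumours. Timp3 had 72 CPM in KO replicate 3 and 52 CPM in WT replicate 5, each far above its group. The ratio of Timp2 to Mmp2 was 56.3 in WT replicate 1, and that of Timp1 to Mmp9 was 61.7 in KO replicate 2, against at most 6.3 in the other WT tumours and 29.7 in the other KO tumours. WT replicate 5 held 8036 CPM of summed fibroblast markers, 207 CPM of luminal epithelial markers, 33547 CPM of adipocyte markers and 151034 CPM of skeletal muscle markers. KO replicate 4 held 1692 CPM of skeletal muscle markers, far above the other KO tumours.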

How the results depend on the processing

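The count of the 10 genes called was 0 under every alternative run. Over all genes, the main counts of 0 with 10 libraries and 2 with 9 were 43 and 326 with DESeq2 and 17 and 143 with limma-voom, and with 9 libraries 0 after summing libraries that share a leading number and 0 with that number as a random block, whose estimated correlation was 0.686 with 10 libraries and 0.366 with 9. Leaving out a library gave 0 to 2 genes called with 10 libraries, 2 without WT replicate 5, and 0 to 1 with 9, 1 without WT replicate 4. Of the 10 genes, 1 had groups without overlap with 9 libraries in unscaled CPM, rather than 2. Of the 20 log2 fold changes, these turned sign. In limma-voom with 10 libraries Mmp3 was -0.35, Mmp9 0.54, Mmp11 -0.12 and Timp1 -0.21, and with 9 libraries -0.3, 0.52, -0.1 and -0.22; the sample weights differ there, and the cause was not tested. Summed by leading number with 10 libraries, Mmp2 was -0.05 and Timp2 -0.13. Over fits that leave out a library, Mmp3 ran between -0.1 and 0.94 with 10 libraries, and Mmp9 between -0.9 and 0.11 with 10 and between -0.98 and 0.41 with 9. Mmp12, Mmp13, Mmp14 and Timp3 kept their sign in every fit that gave a value. Mmp13 failed the filter of 10 counts in every library with 10 libraries. The lowest adjusted p of any of the 10 genes was 0.063, for Timp2 with 9 libraries in DESeq2. No paired analysis was possible because the labels give KO and WT tumours no shared replicate numbers. Mmp13 in WT replicate 5 had the lowest count of the 10 genes, 4, in a library of 25741463 counts. KO replicate 3 had 1139 counts of Mmp13 in a library of 27406237.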

Other observations

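Of the chromosome 9 cluster outside the 10, Mmp1a had 0 CPM in all libraries, and Mmp1b and Mmp20 had at most 0.0266 and 0.0243 CPM. Mmp10 had 0 to 6.82 CPM, Mmp27 0.121 to 4.87 CPM, Mmp8 0.133 to 2.41 CPM and Mmp7 0.133 to 1.8 CPM over the 10 libraries. Mmp19 had 0.935 to 33.2 CPM and Mmp23 0.302 to 24 CPM. The log2 fold change of Mmp19 was -0.38 with 10 libraries and 0.62 with 9, and that of Mmp23 was -0.45 and 0.47, without either passing edgeR's test. Markers of fat and skeletal muscle had median log2 fold changes of -1.42 and -6.17 with 10 libraries and 2.95 and 3.27 with 9, and edgeR, DESeq2 and limma-voom called none of them. By smallest p with 9 libraries, fat led with Lep (4.71), Plin4 (3.33) and Pnpla2 (0.75), and muscle with Tnni2 (3.07), Myh2 (3.92) and Actn3 (3.84), as log2 fold changes. Of the basal markers 5 of 12 were above 0 with 9 libraries, and Cnn1 (1.95), Krt17 (-1.65) and Myh11 (1.52) were called by DESeq2 but not by edgeR, whose adjusted p-values were 0.294, 0.302 and 0.315. Neutrophil markers were tested for 8 of 13, with 7 above 0, and DESeq2 called Ngp (4). Among T and NK cell markers 11 of 13 tested were above 0, with smallest p for Nkg7 (1.55) and Trbc1 (1.26), with Lck at -0.62. Luminal markers had 10 of 16 above 0, with smallest p for Kit (0.35), Elf3 (-0.78) and Epcam (0.19). Of the other genes that overlap a member in the annotation, Syn1 had at most 1.53 CPM, Syn3 at most 1.43 CPM and Cep295nl at most 0.762 CPM.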
